A study of Mus musculus with 4 samples.

Results

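The genes described here are 9 interferon-induced effectors in intestinal tumor organoids: the IFIT genes Ifit1, Ifit2 and Ifit3, Rsad2 (viperin), Bst2 (tetherin), Ifi44, H28 (a synonym of Ifi44l in RefSeq), Ifi35 and Isg20. They were taken by name, as the probes whose gene symbol is one of these, and each of the 9 had 1 probe, among 16446 named genes and 23473 probes in all. Tumor organoids were grown from polyps of ApcMin mice (Apc Min/+) in Matrigel, in serum-free medium with EGF and noggin. One culture received 1 μM 5-Aza-CdR (5-aza-2′-deoxycytidine, an inhibitor of DNA methylation), which was removed after 24 hours, and its RNA was taken at day 4, with an untreated culture as its control. Another was infected with a lentiviral shRNA against Dnmt1, which maintains DNA methylation when DNA is replicated, and its RNA was taken at day 9, with organoids infected with the empty vector as the control shRNA. The infected cultures were selected with puromycin, and nothing in the sources used here says how many mice or clones stand behind a culture. Each of the 4 conditions was measured on 1 array, which leaves every difference without a replicate check, and no test was made.

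Type I interferons are secreted when a cell senses foreign nucleic acid, and through their receptor they activate transcription factors. These bind the interferon-stimulated response element (ISRE) in the promoters of many genes. Several of the products act directly on viruses. IFIT proteins bind viral RNA and block its translation, viperin makes a modified nucleotide that stops viral polymerases, and tetherin holds budding virus on the cell surface. Isg20 is a 3′ exonuclease that degrades RNA. Ifi35 forms a complex with Nmi, and Ifi44 and its neighbor Ifi44l are cytoplasmic proteins whose action is less well known.

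The promoter letters of the members are shown first, because the ISRE is what these genes are known to share. RefSeq (GRCm38.p6) gave 12 start sites for the 9 genes, each with a window from 250 bases before to 50 after the start. The ISRE core was searched as GAAANNGAAA on either strand (TTTCNNTTTC on the other). It was found in 1 window each of 4 members, Ifit1, Ifit3, Rsad2 and Bst2, and in 3.44% of 32851 windows of all genes. The windows of these 4 members are printed from 10 bases before their first match to the base before the start, with each match in capitals, 5′ to 3′ on the strand of the gene, and the last 100 bases before the start of Ifi44 follow for comparison.
Ifit1, chr19:34640775-34640888, plus strand: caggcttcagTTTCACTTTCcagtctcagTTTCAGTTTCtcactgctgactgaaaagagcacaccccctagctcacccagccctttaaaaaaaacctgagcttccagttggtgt
Ifit3, chr19:34583363-34583528, plus strand: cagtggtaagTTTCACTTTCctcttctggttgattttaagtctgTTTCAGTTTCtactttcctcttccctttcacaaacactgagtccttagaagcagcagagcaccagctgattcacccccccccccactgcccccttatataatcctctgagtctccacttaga
Rsad2, chr12:26456453-26456582, minus strand: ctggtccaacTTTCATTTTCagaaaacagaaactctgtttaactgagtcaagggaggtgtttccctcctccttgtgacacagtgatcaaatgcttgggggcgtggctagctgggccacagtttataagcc
Bst2, chr8:71537473-71537612, minus strand: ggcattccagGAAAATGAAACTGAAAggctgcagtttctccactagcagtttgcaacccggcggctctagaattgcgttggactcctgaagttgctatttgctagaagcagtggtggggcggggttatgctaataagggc
Ifi44, chr3:151749911-151750010, minus strand: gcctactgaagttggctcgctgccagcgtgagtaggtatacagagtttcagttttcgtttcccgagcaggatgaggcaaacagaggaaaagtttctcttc

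Ifit1 and Ifit3 each held 2 separate matches, and the 2 matches of Bst2 overlapped into a single run. A match is a description of letters and not a bound site, and the other 5 members had no exact match in their windows. Near matches were not searched for. The printed letters of Ifi44 hold tttcagtttt, which differs from TTTCNNTTTC only in its last base. The share of all windows with such a near match was not counted. The GAS element, searched as TTCNNNGAA, which reads the same on the other strand, was present in a window of 4 members (Isg20, Bst2, Ifi35 and Ifit2) and in 8.3% of all windows. CpG dinucleotides, the sites of DNA methylation, numbered between 1 and 11 in the members' windows, with a median of 7 over all windows. DNA methylation itself was not measured on these arrays.

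The deposited values are intensities with the blank signal subtracted and the median of each array set to 25. A probe was detected when its signal exceeded the mean of the blank spots by more than 2 SD, and 81.1% to 92.9% of the probes were detected on an array. The array also holds 1102 spots without a probe, and the 95th percentile of their intensity lay between 1.90 and 4.48, and a value below this level on its own array is called background here. Of the 9 members, 5 lay above this level in the untreated control and 8 on each of the other arrays. Log2 ratios were computed after normexp correction at an offset of 50 and quantile normalization. The offset draws the ratios of dim probes toward 0, so folds in the deposited intensities are given beside them. A gene was called higher or lower at a 2-fold difference when it was detected on the brighter array. As a measure of technical spread within an array, 24 repeated spots of each of 2 bright control probes gave an SD of 0.20 for a log2 ratio in the 5-Aza-CdR pair and 0.13 in the lentiviral pair, which leaves out the spread between cultures and arrays. In bulk RNA, more cells expressing a gene and more RNA per cell cannot be told apart.

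Of 9 members, 4 were called higher with 5-Aza-CdR (Rsad2, Bst2, Ifi44 and Ifi35), against 0.927% of the 15640 genes detected in that comparison. With Dnmt1 knockdown 5 were higher, the same 4 and Ifit3, against 0.327% of 14392 genes. The 4 shared members stood against 0.189% of genes called higher in both comparisons, which share no array. None of the 9 was called lower, against 0.607% of genes with 5-Aza-CdR and 0.139% with Dnmt1 knockdown. At a 2-fold limit on the deposited intensities, 5 members were higher with 5-Aza-CdR (6.17% of genes), 6 with the knockdown (5.91%) and 5 in both (1.1%), and none was lower (2.09% and 0.813% of genes). With the local background subtracted from each spot, 0 members passed the 2-fold rule after 5-Aza-CdR and 3 in the knockdown, while the log2 ratios of the called members stayed above 0. The members that joined at the deposited limit were Ifit3 with 5-Aza-CdR and Ifit2 with Dnmt1 knockdown. The 9 had a median log2 ratio of 0.48 after 5-Aza-CdR and of 1.45 after Dnmt1 knockdown, where all detected genes had medians of -0.0055 and -0.0048. The study named Ifit3, Rsad2, Bst2 and a gene it calls Ifit1 from these same arrays, so a direction of these genes is not independent evidence, and whether it used the probe named Ifit1 here is not known.

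**Figure D1:**
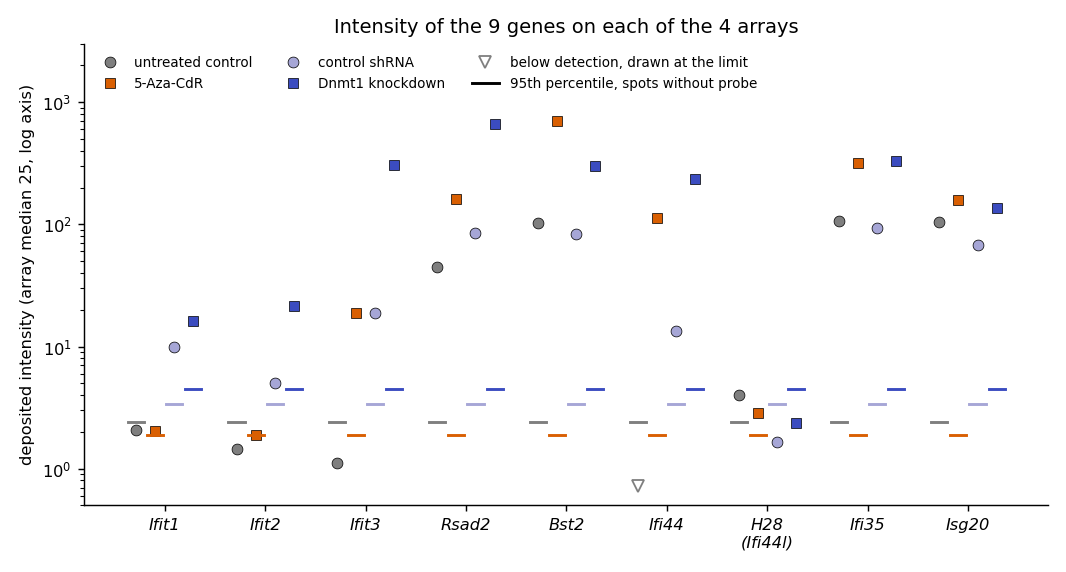
Deposited intensity (log axis, array median 25) of each of the 9 genes on the 4 arrays, 1 point per array, with short bars at the background level of that array (95th percentile, spots without probe). Probes differ in brightness, so points are compared within a gene: Rsad2, Bst2 and Ifi35 lie far above the bars on every array, while Ifit1, Ifit2 and H28 lie near them on some arrays, and the open triangle marks Ifi44, undetected without treatment, at the detection limit.

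The 3 IFIT genes lie side by side on chromosome 19, and their probes behaved differently. Ifit3, which joins Ifit1 in a complex that binds RNA in human cells, stood at 1.11 in untreated organoids, at 18.9 after 5-Aza-CdR, at 18.9 in the control shRNA organoids and at 306 in the knockdown. The first value was background, and the control shRNA organoids stood at the level that 5-Aza-CdR reached. The log2 ratio of Ifit3 with Dnmt1 knockdown was 2.70, the 5th highest of all named genes, and the deposited fold was 16.2. The local background was 84.1% of the signal of its spot with the control shRNA and 86.8% in the knockdown. With it subtracted, this log2 ratio was 0.88, below the 2-fold rule. With 5-Aza-CdR the log2 ratio was 0.48 and the deposited fold 17.0, a size that is poorly determined because it was set against a background value.

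Ifit2, whose product is known to bind AU-rich RNA, measured 1.45 without treatment, 1.89 after 5-Aza-CdR, 5.06 in the control shRNA culture and 21.6 in the knockdown. Both values of the 5-Aza-CdR experiment were thus background and below either lentiviral value, and a difference within background could not be read. With Dnmt1 knockdown its deposited fold was 4.27, and the log2 ratio at the offset of 50 was 0.48, below the 2-fold rule. The probe named Ifit1, whose product recognizes viral RNA by its 5′ end, had 2.07 and 2.04 in the 5-Aza-CdR experiment, the first of them background and the second just above it. The shRNA control had 9.90 and the knockdown 16.3, a deposited fold of 1.65 and a log2 ratio of 0.14. After 5-Aza-CdR the probe thus showed no rise and stayed below both lentiviral values, and a change within background could not be read. A further 6842 probes carry no name here, and whether any of them also measures Ifit1 is not known. Probes of such related genes can bind each other's transcripts, and Ifit1bl1, Ifit1bl2 and Ifit3b, which lie between Ifit3 and Ifit1 in the annotation, had no named probe.

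Rsad2 measured 44.5 without treatment and 163 after 5-Aza-CdR. In the lentiviral experiment it measured 84.8 with the control shRNA and 661 with the Dnmt1 shRNA. All 4 values were far above background, and both treated cultures were higher than either control. The deposited folds were 3.66 and 7.80, and the log2 ratios 1.07 and 2.53. The first of these lay just past the 2-fold limit of 1 on this scale, by less than the spot spread of 0.20, and so did that of Ifi35 given further on.

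Bst2 showed the opposite order of sizes. Without treatment it measured 102, and after 5-Aza-CdR 696. The control shRNA culture had 82.7 and the knockdown 300.3. The control cultures were closer to each other than to either treated one, and the deposited folds were 6.80 and 3.63, with log2 ratios of 2.18 and 1.45. Of all named genes, Bst2 had the 15th highest log2 ratio after 5-Aza-CdR and the 22nd highest in the knockdown. The local background was 60.0% of the signal of its spot without treatment and 76.4% after 5-Aza-CdR, and 77.0% and 76.1% in the lentiviral pair. With it subtracted, the log2 ratios of Bst2 were 0.87 and 0.82.

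Untreated organoids gave no detectable signal of Ifi44, and 5-Aza-CdR gave 112, which makes it at least 3.30-fold higher on the normalized scale, where the control is set to the lowest detected value. It measured 13.45 in control shRNA organoids and 234 in the knockdown, a deposited fold of 17.4 and a log2 ratio of 2.53. Its neighbor and relative H28 stayed dim on all 4 arrays, with 3.99 without treatment, 2.83 after 5-Aza-CdR, 1.66 in the shRNA control and 2.35 in the knockdown. The last pair of values was background, and the log2 ratios were -0.06 and -0.01, smaller than the spot spread.

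Ifi35 had nearly the same levels in both experiments, at 107 without and 315 with 5-Aza-CdR, and at 92.7 with the control shRNA and 333 with the Dnmt1 shRNA. Its deposited folds were 2.95 and 3.60 and its log2 ratios 1.09 and 1.46. Isg20 measured 105 without treatment and 158 after 5-Aza-CdR, and 68.1 and 136 in the lentiviral pair. Its folds of 1.51 and 1.99 were short of 2-fold, and the log2 ratios were 0.28 and 0.68, each larger than the spot spread.

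**Figure D2:**
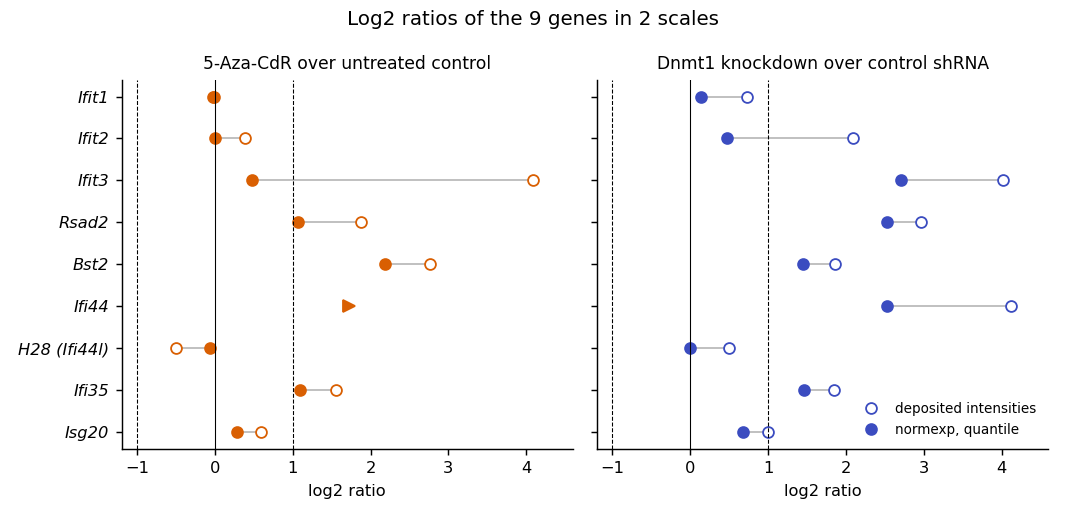
Log2 ratios of the 9 genes with 5-Aza-CdR (left) and Dnmt1 knockdown (right), filled symbols for normexp and quantile normalized values and open circles for the deposited intensities, with dashed lines at 2-fold. The triangle of Ifi44 marks a lower bound, where no deposited fold is drawn, and Ifit3 with 5-Aza-CdR lies at 0.48 on one scale and 4.09 on the other.

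**Figure D3:**
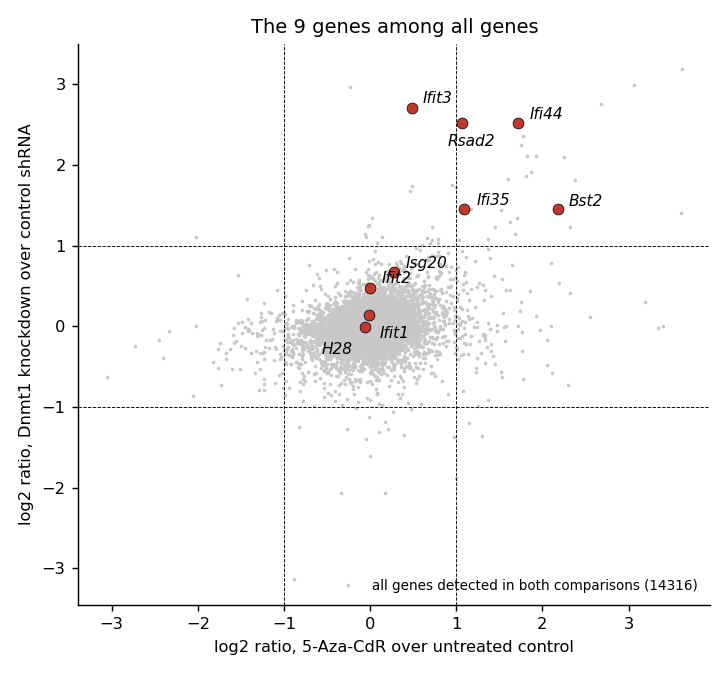
Log2 ratio with 5-Aza-CdR (horizontal) and with Dnmt1 knockdown (vertical) of 14316 genes detected in both comparisons (gray) and of the 9 genes (red), with dashed lines at 2-fold. Rsad2, Bst2, Ifi44 and Ifi35 lie in the upper right field, Ifit3 above the line for Dnmt1 knockdown alone, and Ifit1, Ifit2, H28 and Isg20 inside both limits.

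The levels of the members in the control organoids were also set against each other. In the deposited intensities, 4 of 9 were at least 2-fold higher in the control shRNA organoids than in the untreated control (Ifit1, Ifit2, Ifit3 and Ifi44), against 7.12% of genes, and 1, H28, was lower, against 26.6% of genes. The median gene was lower in the control shRNA by 0.50 on the log2 scale there (median -0.50). Ifit1 was 4.78-fold higher, Ifit2 3.49-fold and Ifit3 17.0-fold, each from a background value. Ifi44 was undetected in the untreated control and measured 13.45 with the control shRNA, so its ratio is only a bound. Rsad2 was 1.91-fold higher from 44.5. For Bst2, Ifi35 and Isg20 the ratio was 0.808, 0.866 and 0.652, and its direction changed with the scaling or background setting. After normexp and quantile normalization the log2 ratio of this control pair was 0.67 for Ifit3 and 0.88 for Rsad2, 0.12 for Bst2 and -0.10 for Isg20. None of the 9 passed the 2-fold rule, where 574 of 15141 genes were higher (3.79%) and 581 were lower. The control shRNA and untreated cultures differed in viral infection, puromycin selection, day of harvest and array, which cannot be told apart. Set against the 5-Aza-CdR array, the Dnmt1 knockdown array had 16.2 times the intensity of Ifit3, 4.06 times that of Rsad2 and 2.09 times that of Ifi44, but 0.432 times that of Bst2 and 1.06 times that of Ifi35.

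The genes most similar in pattern were found by the Euclidean distance between log2 values over the 4 arrays, each gene centered on its own mean, among 15707 other genes. With 4 arrays this is a description of shape only. For Ifit3 and for Rsad2, the nearest 3 were Cxcl10, a chemokine that attracts T cells, Oasl1 and 1810023F06Rik (Ifi27l2b), at distances of 0.81 to 1.01 for Ifit3 and 0.56 to 0.73 for Rsad2. The median distance of all genes was 2.64 from Ifit3 and 2.52 from Rsad2. Like both members, Cxcl10 was higher in the control shRNA culture (50.3) than in untreated organoids (6.73), and it reached 62.9 after 5-Aza-CdR and 252 in the knockdown. For Bst2 the nearest were the chemokine Ccl2 (0.26) and the ADP-ribosyltransferases Parp14 (0.36) and Parp12 (0.42), against a median of 1.89. Ccl2 measured 13.5 and 14.05 in the untreated and the shRNA controls, 271 after 5-Aza-CdR and 77.9 in the knockdown. For Ifi44 they were Rtp4 (0.32), Oas2 (0.35) and Irgm (Irgm1, 0.52), against a median of 2.36. Among the members themselves, Ifit3 lay 0.47 from Rsad2 and 2.52 from Bst2, while Bst2 was nearest to Ifi35 (1.00).

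**Figure D4:**
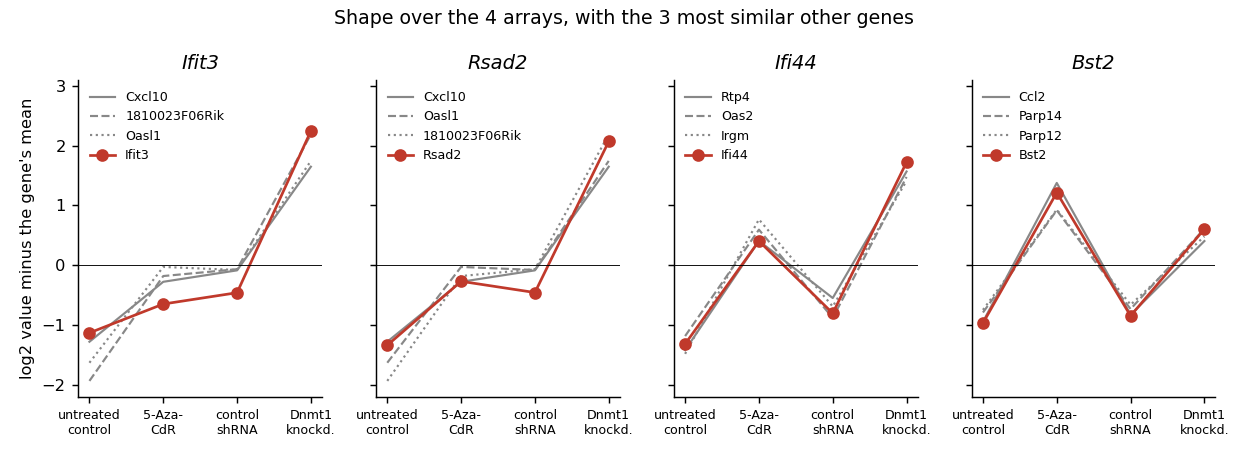
Log2 values over the 4 arrays, each gene centered on its own mean, for Ifit3, Rsad2, Ifi44 and Bst2 (red) and the 3 other genes nearest to each (gray). Ifit3 and Rsad2 peak with Dnmt1 knockdown and Bst2 with 5-Aza-CdR, and the control shRNA lies above the untreated control for Ifit3 and Rsad2 but at about its level for Bst2.

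The genes beside the members on the chromosomes were compared next. For each member the 2 nearest genes with a probe on each side were taken, 24 genes besides the members. None of the 23 detected with 5-Aza-CdR passed the 2-fold rule, against 0.927% of genes higher and 0.607% lower. Of the 19 detected with Dnmt1 knockdown none did, against 0.327% and 0.139%, and the median log2 ratios were 0.02 and 0.01. In the deposited intensities 2 neighbors were higher (6.17% and 5.91% of genes) and 1 was lower (2.09% and 0.813% of genes) in each comparison. The highest of the neighbors was Tyki (Cmpk2), beside Rsad2. Tyki is a mitochondrial nucleotide kinase that in human cells supplies CTP for the reaction of viperin. It measured 13.85 without treatment and 64.1 after 5-Aza-CdR, and 11.7 and 49.8 in the lentiviral pair, with log2 ratios of 0.81 and 0.87. On the other side of Rsad2, Id2, an inhibitor of basic helix-loop-helix factors, had log2 ratios of -0.18 and -0.83. On either side of the IFIT genes, Lip1 (Lipa, lysosomal acid lipase) had 0.32 and 0.10 and Slc16a12, a monocarboxylate transporter, -0.01 and -0.51. Next to Ifi35, Vat1 had 0.03 and 0.01, and next to Isg20, Isg20l1 (Aen), a nuclease induced by p53, had 0.19 and 0.21. Besides Tyki, the neighbors higher in the deposited intensities were Txnl6 with 5-Aza-CdR (undetected to 1.5) and Rnf144 in the knockdown (undetected to 2.22), both at background. Those lower were Rnf144 with 5-Aza-CdR (2.55 to 1.15, the second background) and Slc16a12 in the knockdown (19.8 to 6.38).

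**Figure D5:**
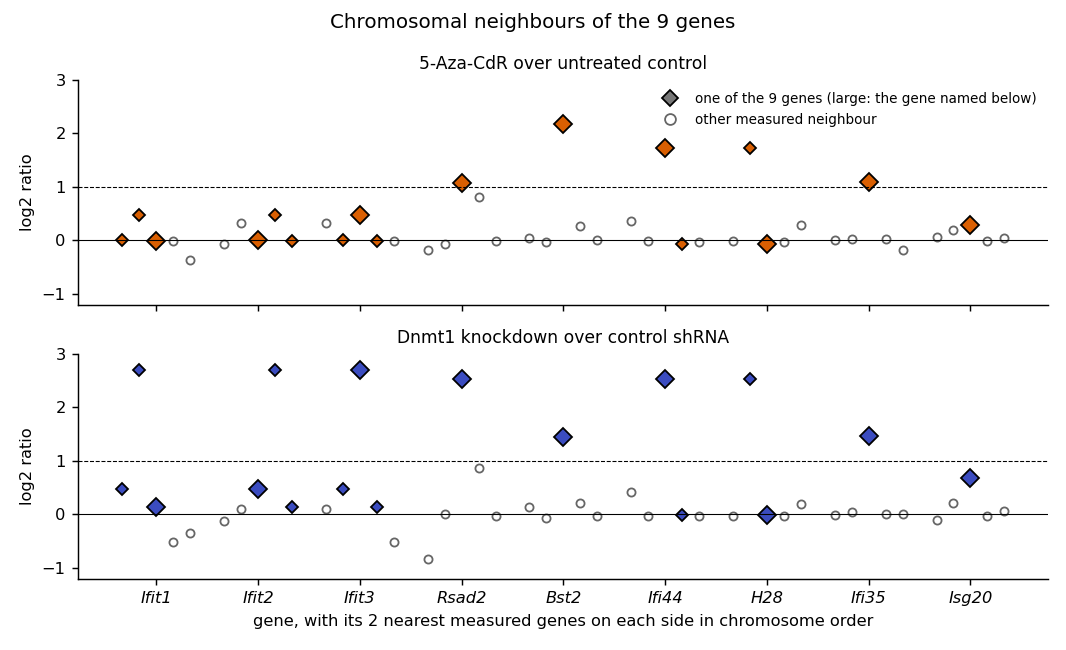
Log2 ratios of each of the 9 genes (large diamonds) and of the 2 nearest measured genes on each side in chromosome order (circles, or small diamonds where the neighbor is one of the 9), for 5-Aza-CdR (top) and Dnmt1 knockdown (bottom), with a dashed line at 2-fold. No circle reaches the dashed line, and the highest is Tyki beside Rsad2 at 0.81 and 0.87.

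Other genes of the interferon response were called higher as well. A list of interferon-stimulated genes that leaves out the 9 had 61 detected, of which 25 were higher after 5-Aza-CdR and 23 after Dnmt1 knockdown, 0 were lower, and the median log2 ratio was 0.79 in each. The share called higher was 44.4% and 55.6% for the members, 41.0% and 37.7% for the list and 0.927% and 0.327% for all genes. In the deposited intensities it was 55.6% and 66.7% for the members, 72.1% and 75.4% for the list and 6.17% and 5.91% for all genes. With the local background subtracted, 0 members and 15 of the 61 were called higher after 5-Aza-CdR, where 142 of all genes were. In the control shRNA over the untreated control, 7 of the 61 were at least 2-fold higher in the deposited intensities (11.5%, against 7.12% of genes). Another 14 were lower, where 26.6% of genes were. The list's median log2 value was -0.24 and that of all genes -0.50, while that of the 9 members was 0.93, partly from ratios to background values. On the normalized scale the medians were 0.06 for the list and 0.21 for the members. Of 19 genes of interferon signaling, after 5-Aza-CdR 3 were higher and in the knockdown 4 (15.8% and 21.1%, against 0.927% and 0.327% of all genes), and none was lower. Their medians were -0.01 and 0.05, and those of all genes -0.0055 and -0.0048. Those called higher are also among the 61 above. Isgf3g (Irf9) had log2 ratios of 1.62 and 1.30, Stat2 0.70 and 1.03, and Irf7, which amplifies interferon expression, 1.87 and 1.91. Usp18, which limits signaling at the interferon receptor, had 2.68 and 2.75. Nmi, the partner of Ifi35, measured 159 without treatment and 425 after 5-Aza-CdR, and 98.1 and 233 in the lentiviral pair, with log2 ratios of 1.07 and 0.94.

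The targeted gene, Dnmt1, stood at 126 with the control shRNA and 71.7 with the Dnmt1 shRNA, a log2 ratio of -0.68. It stood at 239 without treatment and 368 after 5-Aza-CdR, a log2 ratio of 0.39, and neither ratio passed the 2-fold rule. The study, which measured Dnmt1 by quantitative RT-PCR, reports that its expression was decreased at both times of RNA extraction. Markers of intestinal epithelium, a list of 12 of which 10 had a named probe, were detected on all 4 arrays in 10 of 10 cases, and Tacstd1 (Epcam) ranged from 2684 to 7627. None passed the 2-fold rule after 5-Aza-CdR and 1 was lower in the knockdown, 9030623C06Rik (Krt20), a marker of mature cells, with 3.24 without treatment, 9.58 after 5-Aza-CdR, 92.1 in the shRNA control and 27.4 in the knockdown. Of 17 immune cell markers with a probe, 11 to 14 were detected on an array, and their summed intensity was 572 without treatment, 794 after 5-Aza-CdR, 752 in the shRNA control and 692 in the knockdown. Ptprc (CD45), the defining marker of white blood cells, had 3.38, 2.91, 2.41 and 4.84 on these arrays in that order, near background, and Itgam, Cd3g and Nkg7 were below detection on all 4. Most of the sum came from Cd14 (169, 318, 276 and 190.2), Ly6g (105, 192, 345 and 311), Cd68 (194, 178, 67.5 and 105) and Csf1r (51.9, 51.6, 31.9 and 38.3). None of the immune markers passed the 2-fold rule in either comparison. In the deposited intensities 0 were at least 2-fold higher after 5-Aza-CdR (6.17% of genes) and 3 of 11 in the knockdown (5.91% of genes). These were Ptprc, Ms4a1 (1.80 and 5.06) and Gzma (1.36 and 2.83). Their control shRNA values and the knockdown value of Gzma were background. The knockdown values of Ptprc and Ms4a1 lay just above the background level of 4.48. The part of the immune markers in the results was not tested. Of 9 markers of mesenchyme and endothelium, 1 was higher and 1 lower with 5-Aza-CdR and none passed the rule with Dnmt1 knockdown. Their summed intensity was 2625 without treatment, 712 after 5-Aza-CdR, 74.4 in the shRNA control and 52.6 in the knockdown, where Vim alone had 2544, 560, 39.7 and 10.3. Acta2, the one called higher, had 12.1 without treatment and 83.7 after 5-Aza-CdR. The part of this difference in the results was not tested.

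The brightest of the spots beside a member on the array were also read, as signals that are not scaled between arrays. The brightest spot next to Ifit3 had a signal of 4501 with the control shRNA and 3502 in the knockdown, while the signal of Ifit3 was 70.0 and 440.1 on the same arrays. Beside Bst2, the spot of Hspd1 had 3782 without treatment and 7676 after 5-Aza-CdR, and 4799.9 and 4606 in the lentiviral pair. Bst2 itself had 165 and 1298, and 159 and 432. Without treatment and after 5-Aza-CdR, Slc6a6 beside Rsad2 had 124 and 281, Snx2 beside Ifi35 had 653 and 1247, and Atp1b1 beside Ifi44 had 5187 and 5359. The unscaled signals of the spots adjacent to these members were thus higher on the 5-Aza-CdR array. The scaling to a median of 25 multiplied blank-subtracted signals by 0.829 without treatment and by 0.554 after 5-Aza-CdR. The adjacent spots were not compared after this scaling. The part of the adjacent spots in the results was not tested.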

How the data were processed

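Total RNA of the 4 organoid cultures was hybridized in 1 color (Cy5) to Toray arrays. The Methods and the sample labels name different kits for the extraction. The authors deposited scanner signals (median spot intensity and local background) and a table of intensities. Per the values, the deposited intensities equal the spot signal less the blank mean (leaving out 5% of the blanks at either end), scaled to a median of 25, with values at or below the blank mean plus 2 SD left empty. The scaling software is not given in the sources used here. Gene symbols came from the platform annotation, and 16384 of 16446 matched RefSeq names or synonyms of GRCm38.p6, used for neighbor order and promoters only. Spot signals of all spots were corrected with normexp (offset 50, limma 3.58.1, R 4.3.3) without local background, since that was higher around brighter spots (r of the log values 0.81 to 0.96), and quantile normalized. For genes with several probes (174 genes, no member) the brightest was taken. An undetected value was raised to the lowest detected one. Further steps used Python 3.11.15, pandas 2.3.3, numpy 2.4.6 and matplotlib 3.10.9, and the steps were tested on simulated data. Having 1 array per condition limits the precision of every value.

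The members and lists were chosen with earlier results of these data known. Vim, Acta2, Tacstd1, Krt20, the immune markers and the adjacent spots were named after their values were seen. The other named genes were chosen from the 9 members, Dnmt1, the 4 signaling genes with the largest ratios, Cmpk2 and Nmi, the 2 nearest measured genes on each side, and the 3 genes most similar in pattern to Ifit3, Rsad2, Bst2 and Ifi44. The alternatives tried were an offset of 16, the deposited values, subtraction of the blanks alone, median, 75th percentile and pairwise quantile scaling, local background subtraction, the mean of several probes, other detection filters, and limits of 1.5-fold and 3-fold.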

Additional observations from a re-analysis of the deposited data

How the results depend on the processing

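With 1 array per condition no replicate could be left out, and no paired analysis was possible because no condition was repeated. The number of members called higher was 4 with 5-Aza-CdR, 5 with Dnmt1 knockdown and 4 in both. It moved by more than 1.5 times in only 2 of the 12 alternatives, to 2, 3 and 1 at the 3-fold limit and to 0, 3 and 0 with the local background subtracted. With the local background subtracted, the log2 ratio of Bst2 was 0.87 after 5-Aza-CdR and 0.82 in the knockdown, and that of Ifit3 in the knockdown was 0.88, where the local background was 86.8% of the signal of its spot. Rsad2 had 0.68 and 2.54, and Ifi44 0.85 and 1.58. The median of the members with 5-Aza-CdR, 0.48, became 1.56 for deposited values, 1.05 when the offset was 16 and 1.39 with plain blank subtraction. With Dnmt1 knockdown the median of 1.45 became 1.86, 1.63 and 1.64 in these settings, and 0.82 with the local background subtracted. The other interferon-stimulated genes called higher (25 and 23) were 44 and 46 in the deposited values, 41 in each comparison with plain blank subtraction, 38 and 42 at the 1.5-fold limit and 14 and 13 at the 3-fold limit, and 15 with 5-Aza-CdR with the local background subtracted. Across the 8 alternatives for each ratio, Rsad2, Bst2, Ifi44, Ifi35, Ifit3 and Isg20 stayed above 0 in both comparisons. Ifit1 and H28 were below 0 with 5-Aza-CdR in each of the 8, with values at or near background. Ifit2 with 5-Aza-CdR lay between -0.55 and 0.38. In the control shRNA over the untreated control, Bst2 lay between -0.37 and 0.15 and Ifi35 between -0.30 and 0.25, so their direction there depends on the setting, as does that of H28 (-1.27 to 0.14) and Isg20 (-0.62 to 0.22), while Ifit1, Ifit2, Ifit3, Rsad2 and Ifi44 were above 0 in all 7. Scaling to the 75th percentile put the median of all genes after 5-Aza-CdR at -0.34, and the deposited values put it at 0.17 after 5-Aza-CdR and 0.19 in the knockdown. The share of higher genes among all called moved with the scaling, as the counts show: 145 higher and 95 lower with 5-Aza-CdR, 344 and 52 with median scaling, 147 and 133 with 75th percentile scaling, 965 and 327 for deposited values. In the knockdown they were 47 and 20, 851 and 117 for deposited values, and 181 and 333 with the local background subtracted.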
